A study of Homo sapiens with 24 samples.

Results

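Polyamine metabolism was followed through 9 genes on expression arrays of 4 human acute myeloid leukemia (AML) cell lines. They were the synthesis genes ODC1, AMD1, SRM and SMS, the breakdown genes SAT1 and SMOX, and the regulators OAZ1, OAZ2 and AZIN1. The genes were taken by symbol, only probe sets annotated to a single symbol were used, and where a gene had several, the brightest on average stood for it. All 9 were measured, among 12165 genes in all. The 8 groups of 3 arrays were MOLM-14 with R406, MOLM-14 with DMSO, U937 with R406, U937 with DMSO, HL-60 with R406, HL-60 with DMSO, KG-1 with R406 and KG-1 with DMSO. R406, the metabolite through which the drug fostamatinib acts, is an inhibitor of SYK, a non-receptor tyrosine kinase, and is not selective for it. Dimethyl sulfoxide (DMSO) is its solvent and was the vehicle control. Cells were exposed for 24 h at 4 µM per the labels, although the series' design text gives the same figure in mM. MOLM-14 has monocytic features, an MLL-AF9 gene fusion and a FLT3 receptor with an internal tandem duplication. U937 is also monocytic, HL-60 is promyelocytic, and KG-1 resembles early myeloblasts. Each line is a single established culture, and nothing in the labels says that the triplicates came from separate cultures, so p-values measure the spread between these arrays, which may be technical.

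Polyamines are small, positively charged molecules that bind nucleic acids and are needed by dividing cells. Ornithine decarboxylase, encoded by ODC1, makes putrescine from ornithine, and S-adenosylmethionine decarboxylase, encoded by AMD1, supplies the aminopropyl donor. Spermidine synthase (SRM) turns putrescine into spermidine, and spermine synthase (SMS) turns spermidine into spermine. Spermidine/spermine N1-acetyltransferase (SAT1) acetylates both for export or oxidation, and spermine oxidase (SMOX) turns spermine back into spermidine. The antizymes OAZ1 and OAZ2 bind ornithine decarboxylase and direct it to the proteasome, while the antizyme inhibitor AZIN1 binds the antizymes in its place. Much of this control acts on translation and protein turnover, which arrays do not measure. In leukemic cells ODC1 is best known as a target gene of the transcription factor MYC.

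Promoter sequences are shown for ODC1, SRM and SAT1, the members that differed between R406 and DMSO in all 4 lines. The windows come from RefSeq on GRCh38.p14 and run from 250 bases before to 50 after a transcript start. They were searched for CACGTG, the E-box that dimers of MYC and MAX bind, which reads the same on both strands. Of 35116 such windows of all genes, 2548 (7.26%) held it. Windows were found for 7 of the 9 members, 10 windows in all, and 2 of these held the motif, 1 of SRM and 1 of ODC1. Capitals mark the motif, and all sequences run 5′ to 3′ along the gene. The 250 bases before the SRM start lie at chr1:11060019-11060268 on the minus strand, with the first motif base 199 bases before the start.
SRM: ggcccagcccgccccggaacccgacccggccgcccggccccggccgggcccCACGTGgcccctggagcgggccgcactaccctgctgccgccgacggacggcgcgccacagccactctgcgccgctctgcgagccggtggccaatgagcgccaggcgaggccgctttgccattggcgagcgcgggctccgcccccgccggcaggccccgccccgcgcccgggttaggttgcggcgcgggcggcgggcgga
The 250 bases before the first ODC1 start lie at chr2:10448328-10448577 on the minus strand and hold no CACGTG.
ODC1: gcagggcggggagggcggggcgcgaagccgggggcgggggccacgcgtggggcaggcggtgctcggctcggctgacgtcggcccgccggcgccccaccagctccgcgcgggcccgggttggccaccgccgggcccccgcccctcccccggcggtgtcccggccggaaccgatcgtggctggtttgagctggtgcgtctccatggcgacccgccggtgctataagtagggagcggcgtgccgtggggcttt
A second ODC1 start, 315 bases further along the gene, has 2 copies in its window. The first lies 29 bases before that start, shown with its flanks at chr2:10448024-10448053, and the second 5 bases after it, at chr2:10447990-10448019.
ODC1 motif before the second start: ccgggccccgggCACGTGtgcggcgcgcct
ODC1 motif after the second start: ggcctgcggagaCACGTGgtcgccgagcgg
The 250 bases before the SAT1 start lie at chrX:23782923-23783172 on the plus strand and hold no CACGTG.
SAT1: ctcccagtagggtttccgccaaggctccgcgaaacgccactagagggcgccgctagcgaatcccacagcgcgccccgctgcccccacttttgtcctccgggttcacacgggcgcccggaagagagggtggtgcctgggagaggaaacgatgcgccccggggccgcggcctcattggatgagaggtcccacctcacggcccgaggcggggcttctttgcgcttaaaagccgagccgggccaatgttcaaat

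The probe set intensities spanned 3.41 to 12686, and the median of an array was 19.1 to 21.4. Replicates correlated at a mean r between 0.994 and 0.998 with their group mates over genes, and the lowest value belonged to KG-1 R406 replicate 2. The 3′ to 5′ log2 ratio of the ACTB control probe sets, a sign of RNA integrity, was 0.82 with R406 and 0.48 with DMSO in MOLM-14, where the 2 groups did not overlap (p = 0.1 by a two-sided exact permutation test, which cannot go lower with 3 arrays a group). The R406 minus DMSO difference of that ratio was 0.34 in MOLM-14, -0.039 in U937, -0.13 in HL-60 and 0.12 in KG-1, and the groups were also apart in HL-60 and KG-1 (exact permutation p = 0.1 each). The GAPDH difference was 0.078 for MOLM-14 and 0.10 for KG-1 (exact permutation p = 0.1 each), against -0.0058 in U937 and -0.011 in HL-60, whose groups overlapped. The pan-leukocyte marker PTPRC averaged 444 to 1645 over the 8 groups and was called higher with R406 in all 4 lines, by a log2 fold change of 1.35 in MOLM-14 and 0.39 to 0.59 in the others. With R406, 56.2% of all genes were called either way in MOLM-14, 11.5% in U937, 15.2% in HL-60 and 44.5% in KG-1. The counts of called markers in each list stand beside those shares. Of 5 measured myeloid markers, 4 were called higher and 1 lower in MOLM-14, 1 higher in U937, 1 higher in HL-60, and 3 higher and 1 lower in KG-1. Their summed level was 3629 to 4166 with R406 and 2260.1 to 2349 with DMSO in MOLM-14, and 1984 to 2148 with R406 and 1538 to 1647 with DMSO in KG-1. It was 1975 to 2053 with R406 and 1718 to 1777 with DMSO in U937, and 7849.6 to 8248 with R406 and 9244 to 9773 with DMSO in HL-60. MPO, a granule enzyme, averaged 13.0 with R406 and 44.0 with DMSO in MOLM-14, and 69.2 with R406 and 28.5 with DMSO in KG-1, both called. Of 4 monocyte markers, 2 were higher and 1 lower in MOLM-14, 2 higher in U937, 2 higher and 1 lower in HL-60, and 2 lower in KG-1. CSF1R averaged 74.1 with R406 and 17.1 with DMSO in MOLM-14, CD14 averaged 853 with R406 and 279 with DMSO in HL-60, and ITGAM averaged 139 with R406 and 487 with DMSO in KG-1. FCGR1A averaged 211 with R406 and 310 with DMSO in MOLM-14 and 182 with R406 and 332 with DMSO in HL-60, both called lower. It was also called lower in KG-1, and higher in U937 at 121 with R406 and 84.5 with DMSO. The summed monocyte list was 1298 to 1389 with R406 and 777 to 866 with DMSO in HL-60, and 165 to 175 with R406 and 526 to 555 with DMSO in KG-1. It was 382 to 397 with R406 and 394 to 411 with DMSO in MOLM-14, which overlap. In U937 it was 261 to 297 with R406 and 184 to 188 with DMSO. CD34, a progenitor marker, averaged 999.7 with R406 and 613 with DMSO in KG-1, against 14.8 to 18.1 in the groups of the other lines. KIT, the other progenitor marker, averaged 144 with R406 and 17.9 with DMSO in MOLM-14, 974 with R406 and 228 with DMSO in KG-1, and 18.8 with R406 and 37.0 with DMSO in HL-60, all called. EPCAM, an epithelial marker, was at most 5.54 in any group. Of 4 epithelial and fibroblast markers, 1 was called in KG-1: COL3A1 averaged 139 with R406 and 7.39 with DMSO, and the summed level of the list was 131 to 224 with R406 and 46.1 to 51.0 with DMSO. Of 4 T and NK cell markers, only NKG7 was called, higher with R406 in MOLM-14 and KG-1 and lower in HL-60. Their summed level was 299 to 333 with R406 and 168 to 191 with DMSO in MOLM-14, and 512 to 647 with R406 and 307 to 313 with DMSO in KG-1. The B cell marker CD79A and the epithelial marker KRT8 were called higher in MOLM-14 and the erythroid marker HBB in KG-1. CD33 and LYZ were not analysed here. The part of RNA integrity and of these markers in the results below was not tested.

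The synthesis genes ODC1 and SRM were lower and the breakdown gene SAT1 was higher with R406 in each of the 4 lines, with the widest changes in MOLM-14 and KG-1. A gene was called where the Benjamini-Hochberg adjusted p of the limma model over all 12165 genes was under 0.05. In MOLM-14, 3 members were called higher and 4 lower, where 56.2% of all genes were called, 31.1% higher and 25.0% lower. In U937, 1 member was called higher and 2 lower, against 11.5% of all genes, 6.12% higher and 5.43% lower. In HL-60 the counts were again 1 higher and 2 lower, against 15.2% of all genes, 7.19% higher and 7.97% lower. In KG-1, 2 were called higher and 4 lower, against 44.5% of all genes, 23.6% higher and 20.9% lower. Over the 9 members, log2 fold changes had a median of -0.080 in MOLM-14, -0.023 in U937, 0.018 in HL-60 and 0.023 in KG-1, beside 0.068, 0.0027, -0.0029 and 0.020 over all genes in the same order. Among all genes called in U937, 53.0% were higher, and median centring made this 40.7%. In KG-1 the share was 53.0%, and 44.1% with median centring, and for the mean of the lines it was 54.8%, and 49.8% with median centring. Being called lower in all 4 lines applied to 218 genes (1.79%), ODC1 and SRM among them, and being called higher in all 4 to 128 genes (1.05%), among them SAT1.

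**Figure D1:**
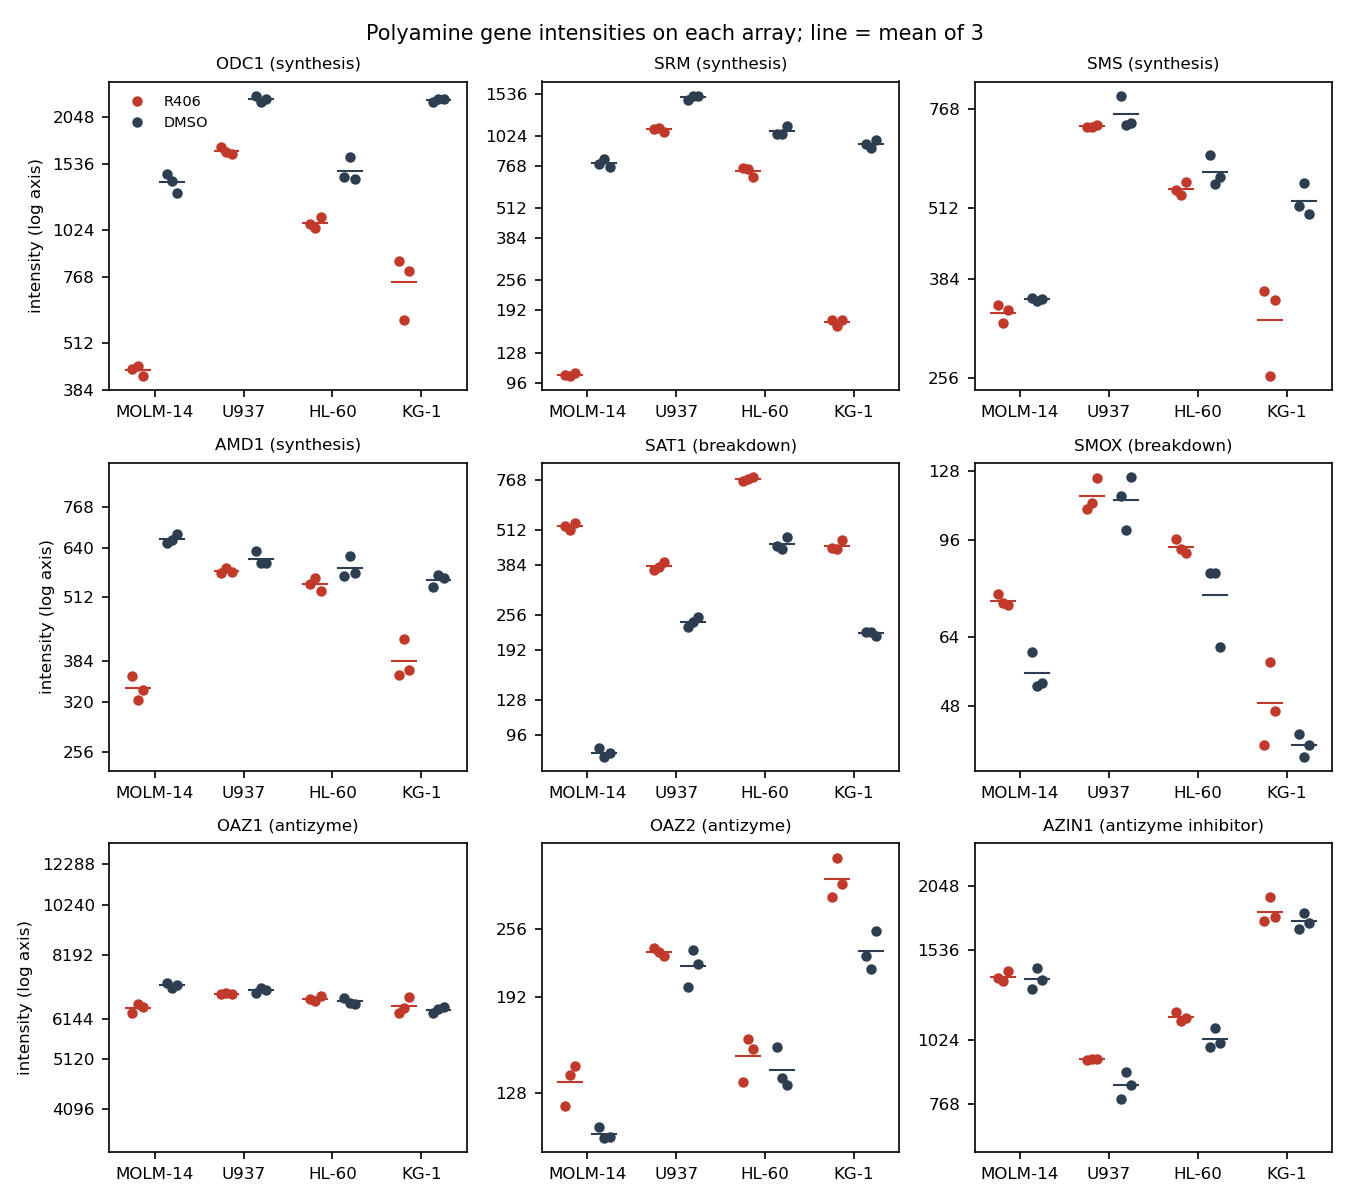
Intensity of the 9 polyamine genes on each of the 24 arrays, 1 panel a gene, on a log axis that differs between panels, with R406 left of DMSO in each line and a line at the mean of 3 arrays. The R406 points of ODC1 and SRM lie below and those of SAT1 above the DMSO points in every line, while OAZ1 stays between 6299 and 7224 on all arrays.

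ODC1 was lower with R406 in all 4 lines, by about 3-fold in 2 of them. In MOLM-14 its intensity was 437, 443 and 417 with R406, against 1439.5, 1381 and 1286 with DMSO. In KG-1 it was 846, 588 and 797 with R406, against 2248, 2288 and 2287 with DMSO. Both pairs of groups lie far apart, and the low R406 value in KG-1 is replicate 2. The U937 arrays gave 1699.7, 1649.8 and 1632 with R406 and 2332, 2237 and 2279 with DMSO, and the HL-60 arrays 1060.1, 1033 and 1106 with R406 and 1411, 1604 and 1401 with DMSO. The groups did not overlap in any line. The log2 fold change was -1.66 ± 0.093 (adjusted p = 5.16e-13) in MOLM-14, a 3.16-fold lower level, and -1.63 ± 0.093 (adjusted p = 2.34e-12) in KG-1, 3.09-fold lower (± SE throughout). It was -0.46 ± 0.093 (adjusted p = 0.00196) in U937 and -0.46 ± 0.093 (adjusted p = 0.00117) in HL-60. Without KG-1 R406 replicate 2 the value in KG-1 was -1.47 and remained called. In bulk RNA, fewer cells that express a gene and less of its RNA per cell cannot be told apart.

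SRM, the spermidine synthase gene, had the widest change of the 9 members in MOLM-14 and KG-1. In MOLM-14 it measured 103, 102 and 105 with R406, against 780.5, 823 and 762 with DMSO, a 7.56-fold lower level. In KG-1 it measured 175, 165 and 175 with R406, against 948, 911 and 988 with DMSO, 5.51-fold lower. Its R406 arrays differed among themselves by far less than this gap in both lines. U937 arrays read 1100.0, 1111 and 1070.5 with R406 and 1449, 1508 and 1512 with DMSO. HL-60 arrays read 753, 749.5 and 689 with R406 and 1047, 1043 and 1134 with DMSO. Again no group overlapped its control. The log2 fold changes were -2.92 ± 0.059 (adjusted p = 1.34e-19) in MOLM-14 and -2.46 ± 0.059 (adjusted p = 5.91e-18) in KG-1. They were -0.45 ± 0.059 (adjusted p = 2.55e-05) in U937 and -0.56 ± 0.059 (adjusted p = 5.16e-07) in HL-60. Ordered by log2 fold change, SRM was the 15th lowest of 12165 genes in KG-1 and the 68th lowest in MOLM-14.

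AMD1 and SMS fell in fewer lines. AMD1 measured 360.3, 323 and 337 with R406 and 653, 663 and 679 with DMSO in MOLM-14, and 362, 424 and 369 with R406 and 536, 565 and 559 with DMSO in KG-1. Its log2 fold change was -0.97 ± 0.065 (adjusted p = 1.18e-11) in MOLM-14 and -0.53 ± 0.065 (adjusted p = 4.14e-07) in KG-1. In U937 the value was -0.076 ± 0.065 (adjusted p = 0.576), with R406 arrays at 571 to 585 and DMSO arrays at 596 to 630.2, and in HL-60 it was -0.10 ± 0.065 (adjusted p = 0.366). Neither passed the test. SMS, which makes spermine, was called in KG-1 alone, where it measured 365, 257 and 351 with R406 and 516, 567 and 500.0 with DMSO, a log2 fold change of -0.71 ± 0.094 (adjusted p = 9.78e-07). The lowest of those R406 values is replicate 2, and without it the fold change was -0.56 and still called. Log2 values for SMS in the other lines were -0.08 ± 0.094 (adjusted p = 0.497) in MOLM-14, -0.07 ± 0.094 (adjusted p = 0.765) in U937 and -0.10 ± 0.094 (adjusted p = 0.592) in HL-60.

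SAT1, the acetyltransferase that starts polyamine breakdown, was higher with R406 in all 4 lines and changed most in MOLM-14. There it measured 528, 514 and 542 with R406, against 85.8, 79.8 and 82.8 with DMSO, 6.31-fold higher. The KG-1 values were 443, 437 and 471 with R406 and 223, 223 and 216 with DMSO, 2.04-fold higher. MOLM-14 had by far the lowest SAT1 of the DMSO groups, and with R406 it lay above U937 and KG-1 and below HL-60. In U937 the arrays read 369, 379.7 and 395 with R406 and 233, 242 and 252 with DMSO, 1.57-fold higher. In HL-60 they read 767, 776 and 793 with R406 and 450.4, 439.9 and 485 with DMSO, 1.7-fold higher. The lowest R406 array exceeded the highest DMSO array in every line. Log2 fold changes were 2.66 ± 0.058 (adjusted p = 1.68e-19) in MOLM-14, 0.65 ± 0.058 (adjusted p = 1.84e-07) in U937, 0.76 ± 0.058 (adjusted p = 3.37e-09) in HL-60 and 1.03 ± 0.058 (adjusted p = 2.07e-12) in KG-1. By log2 fold change SAT1 was the 50th highest gene in MOLM-14, the 92nd in U937, the 114th in HL-60 and the 386th in KG-1. With probe sets whose names end in _s_at or _x_at left out, SAT1 rests on a probe set with a mean of 8.28, and the calls end (adjusted p = 0.986 in MOLM-14, 0.983 in U937, 0.965 in HL-60 and 0.529 in KG-1).

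SMOX, the spermine oxidase gene, was called higher in MOLM-14 alone. It measured 76.6, 73.7 and 73.2 with R406 and 60.3, 52.2 and 52.8 with DMSO there, a log2 fold change of 0.43 ± 0.12 (adjusted p = 0.00293). In HL-60, 96.3, 92.5 and 90.9 with R406 stood against 83.6, 83.6 and 61.4 with DMSO, which did not overlap, at 0.30 ± 0.12 (adjusted p = 0.0904). KG-1 gave 40.8, 57.8 and 47.1 with R406 and 42.7, 38.8 and 40.9 with DMSO, and U937 gave 109, 112 and 124 with R406 and 115, 99.9 and 125 with DMSO. These groups overlap, and their log2 fold changes of 0.23 ± 0.12 (adjusted p = 0.116) in KG-1 and 0.025 ± 0.12 (adjusted p = 0.954) in U937 did not pass the test. Without KG-1 R406 replicate 2 in the fit, the HL-60 value of 0.30 was called at an adjusted p of 0.0474, and without KG-1 R406 replicate 1 the KG-1 value became 0.35 and was called at 0.0213.

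The regulators of ornithine decarboxylase moved little. OAZ1, the main antizyme gene, measured 6299, 6556 and 6466 with R406 and 7224, 7056 and 7159.8 with DMSO in MOLM-14, a log2 fold change of -0.15 ± 0.05 (adjusted p = 0.0132). That call was lost with the mean of its probe sets (-0.098, adjusted p = 0.158) and with the arrays of MOLM-14 alone (adjusted p = 0.105). In the other lines its log2 fold change lay between -0.023 and 0.023, and none was called. OAZ2, the second antizyme gene, was higher with R406 in MOLM-14 and KG-1. Its intensities were 121, 138 and 143 with R406 and 111, 106 and 106 with DMSO in MOLM-14, and 293, 347 and 309.8 with R406 and 228, 217 and 254 with DMSO in KG-1. The groups did not overlap, and the log2 fold changes were 0.31 ± 0.089 (adjusted p = 0.00433) in MOLM-14 and 0.44 ± 0.089 (adjusted p = 0.00024) in KG-1. The second OAZ2 probe set was called in neither line, at 0.01 in MOLM-14 and 0.14 in KG-1. In U937 OAZ2 was 0.091 ± 0.089 (adjusted p = 0.647) and in HL-60 0.082 ± 0.089 (adjusted p = 0.66). AZIN1, the antizyme inhibitor, was not called in any line. Its R406 arrays lay at 937.4 to 942 and its DMSO arrays at 788 to 888 in U937, and in HL-60 at 1118 to 1164 with R406 and 992 to 1081 with DMSO. Neither pair of groups overlapped, yet the log2 fold changes of 0.17 ± 0.063 (adjusted p = 0.0961) and 0.15 ± 0.063 (adjusted p = 0.137) missed the threshold, which both passed with a pseudocount of 16 (adjusted p = 0.029 and 0.049). The MOLM-14 and KG-1 values were 0.014 ± 0.063 (adjusted p = 0.872) and 0.063 ± 0.063 (adjusted p = 0.475).

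Groups that did not overlap were counted as well. In MOLM-14, 3 members had all R406 arrays above all DMSO arrays and 5 below, where this held for 31.6% and 26.1% of all genes. The counts were 2 above and 5 below in U937, against 18.2% and 15.8%. They were 3 above and 3 below in HL-60, against 15.9% and 16.9%, and 2 above and 4 below in KG-1, against 26.6% and 23.2%.

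Averaged over the 4 lines with equal weight, 4 members were called higher and 4 lower, where 53.1% of all genes were called, 29.1% higher and 24.0% lower. All 4 synthesis genes were lower: SRM at -1.60 ± 0.029 (adjusted p = 2.36e-20), ODC1 at -1.05 ± 0.046 (adjusted p = 1.21e-14), AMD1 at -0.42 ± 0.032 (adjusted p = 1.65e-10) and SMS at -0.24 ± 0.047 (adjusted p = 0.00012). Both breakdown genes were higher, SAT1 at 1.28 ± 0.029 (adjusted p = 6.7e-19) and SMOX at 0.25 ± 0.058 (adjusted p = 0.000884). Without probe sets ending in _s_at or _x_at the SMOX mean was 0.14 and not called (adjusted p = 0.0648), and that of SAT1 was 0.024 (adjusted p = 0.729). OAZ2 was higher at 0.23 ± 0.045 (adjusted p = 0.000105) and AZIN1 at 0.097 ± 0.031 (adjusted p = 0.0114), while OAZ1 at -0.033 ± 0.025 (adjusted p = 0.289) was not called. The second probe set gave a mean of 0.093 for OAZ2 (adjusted p = 0.113) and 0.0089 for AZIN1 (adjusted p = 0.877), adjusted over probe sets, and neither was called. SMS was called in KG-1 alone, and its value in each of the other lines was between -0.10 and -0.07 and none was called.

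**Figure D2:**
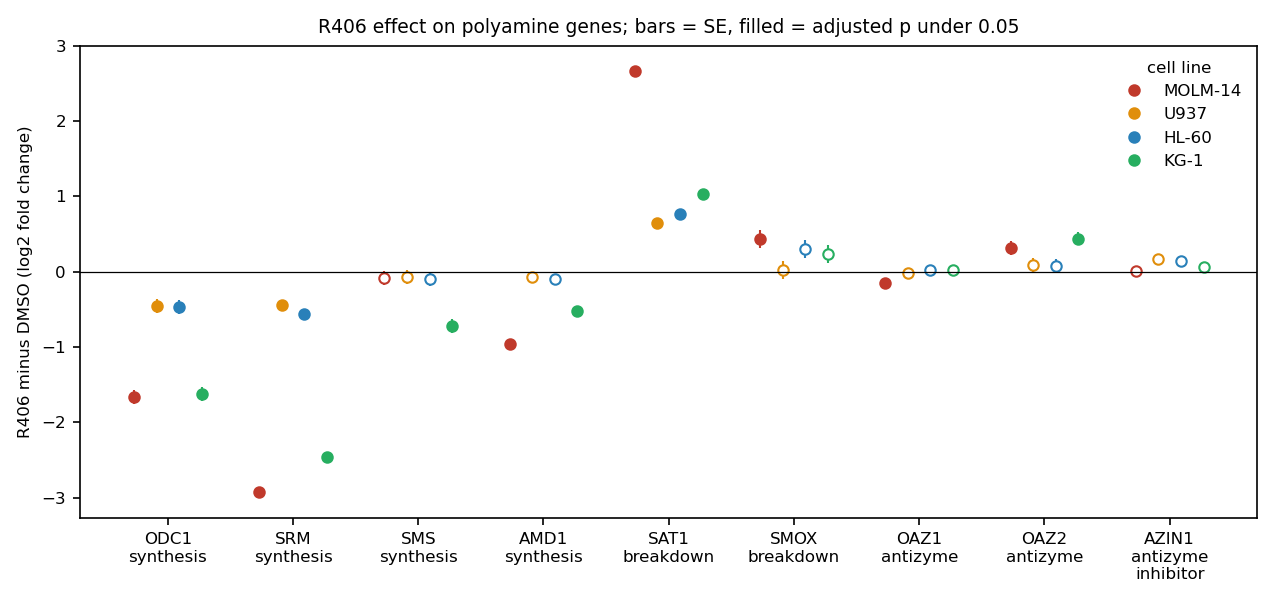
Log2 fold change of R406 over DMSO for each polyamine gene in each line, with bars of 1 standard error and filled points for adjusted p under 0.05. SRM reaches -2.92 in MOLM-14 and -2.46 in KG-1, SAT1 reaches 2.66 in MOLM-14, and ODC1, SRM, AMD1 and SAT1 all lie closer to 0 in U937 and HL-60 than in the other lines.

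The R406 effect differed between the lines for 6 of the 9 members by a moderated F test, where 54.9% of all genes did. The range of the 4 effects was 2.47 for SRM (adjusted p = 4.11e-16), 2.01 for SAT1 (adjusted p = 1.73e-14) and 1.20 for ODC1 (adjusted p = 4.74e-09) on the log2 scale. It was 0.89 for AMD1 (adjusted p = 3.68e-08) and 0.64 for SMS (adjusted p = 0.000341). OAZ2 passed narrowly, with a range of 0.36 (adjusted p = 0.0427), and 19 of 32 alternative settings ended that call, 15 of them by leaving out 1 array (adjusted p up to 0.103). SMOX, OAZ1 and AZIN1 did not pass, with adjusted p of 0.188, 0.122 and 0.389. OAZ1 passed with a pseudocount of 16 (adjusted p = 0.0031), and SMOX with the mean of its probe sets (adjusted p = 0.0453). Against the mean effect of the other 3 lines, MOLM-14 had 1 member called higher and 4 called lower, where 45.9% of all genes were called, 23.6% higher and 22.3% lower. That comparison was chosen because MOLM-14 had the widest response in earlier results of these data, so its p-values are a description only. SAT1 was higher by 1.84 ± 0.067 (adjusted p = 2.32e-15), and SRM differed by -1.76 ± 0.068 (adjusted p = 5.18e-15), ODC1 by -0.81 ± 0.11 (adjusted p = 1.32e-06), AMD1 by -0.73 ± 0.075 (adjusted p = 3.04e-08) and OAZ1 by -0.16 ± 0.057 (adjusted p = 0.0298). Leaving out MOLM-14 DMSO replicate 1, MOLM-14 DMSO replicate 3 or MOLM-14 R406 replicate 1 ended the OAZ1 call (adjusted p up to 0.0746). The OAZ1 call was also lost with median centring (-0.098, adjusted p = 0.172) and with the mean of its probe sets (-0.0995, adjusted p = 0.236). A replicate block ended it as well (adjusted p = 0.0828). For MOLM-14 minus the other lines, SMS was called higher with quantile normalization (0.30, adjusted p = 0.0229) and with median centring (0.27, adjusted p = 0.0374). SMOX was called higher there in 4 of 32 alternative settings (adjusted p down to 0.0132).

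Pairs of lines, compared after these results were seen and adjusted over all genes within each pair, gave intervals for these differences. For the R406 effect, the share of all genes called in a pair ran from 7.23% for U937 against HL-60 to 45.3%. For ODC1, the effect in MOLM-14 minus that in KG-1 was -0.03 (95% interval -0.30 to 0.24, adjusted p = 0.891), and U937 minus HL-60 was 0.0036 (95% interval -0.27 to 0.28, adjusted p = 0.996). For SRM, MOLM-14 minus KG-1 was -0.46 (95% interval -0.63 to -0.28, adjusted p = 0.000159), so the fall was wider in MOLM-14, and U937 minus HL-60 was 0.11 (95% interval -0.061 to 0.29, adjusted p = 0.586). For AMD1, MOLM-14 minus KG-1 was -0.44 (95% interval -0.63 to -0.25, adjusted p = 0.000635). The SMS effect in KG-1 was below that of each other line, and MOLM-14 minus KG-1 was 0.64 (95% interval 0.36 to 0.91, adjusted p = 0.000641). The SAT1 effect in MOLM-14 exceeded that in KG-1 by 1.63 (95% interval 1.46 to 1.80, adjusted p = 1.14e-12). For SAT1, HL-60 minus KG-1 was -0.26 (95% interval -0.43 to -0.094, adjusted p = 0.0141) and U937 minus HL-60 was -0.11 (95% interval -0.28 to 0.059, adjusted p = 0.581). Where a pair missed the threshold, its interval gives the differences these arrays leave possible.

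Levels with DMSO differed between the lines for all 9 members by a moderated F test, where 68.1% of all genes were called. The comparisons of 1 line with another below come from the pairs of lines added after results were seen. For the DMSO level, 46.1% to 51.2% of all genes were called in a pair. ODC1 averaged 2282 ± 47.5 in U937, 2274 ± 22.8 in KG-1, 1472 ± 115 in HL-60 and 1369 ± 77.3 in MOLM-14 (SD, n = 3 each). U937 and KG-1 did not differ beyond their spread, nor did HL-60 and MOLM-14. SRM averaged 1489.7 ± 35.6 in U937, 1075 ± 51.4 in HL-60, 949 ± 38.4 in KG-1 and 789 ± 30.9 in MOLM-14, and each step in that order passed the test. SAT1 averaged 459 ± 23.8 in HL-60, 242 ± 9.66 in U937, 220.4 ± 3.91 in KG-1 and 82.8 ± 3.01 in MOLM-14, of which U937 and KG-1 were not told apart. Its range over the 4 DMSO groups, 2.46 on the log2 scale, was the widest among the members. SMOX was highest in U937 (113 ± 12.7), then HL-60, MOLM-14 and KG-1 (40.8 ± 1.98), each apart from the next. On its other probe set, used where _s_at and _x_at probe sets were left out, the SMOX range between DMSO groups was 0.16 rather than 1.45 and not called (adjusted p = 0.658). AZIN1 was highest in KG-1 (1745 ± 66.7), then MOLM-14, HL-60 and U937 (839 ± 50.0), and its neighbours in that order also differed. OAZ2 stood at 233 ± 19.1 in KG-1 and 219 ± 17.3 in U937, which were not told apart, above HL-60 and MOLM-14 (107 ± 2.71). SMS was highest in U937 (753 ± 51.7), followed by HL-60 and KG-1, not told apart, and MOLM-14 (353 ± 2.68). AMD1 was highest in MOLM-14 (665 ± 13.2), then U937, HL-60 and KG-1 (553 ± 15.2), and no neighbours in that order differed, although MOLM-14 was above HL-60 and KG-1. OAZ1 had the narrowest range, 0.16 on the log2 scale (adjusted p = 0.0283), a call lost without replicate 1 or 3 of MOLM-14 DMSO or replicate 1 or 2 of KG-1 DMSO (adjusted p up to 0.0841).

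For 6 members more than 1 probe set was present, and calls here are adjusted over all single-symbol probe sets. The dimmer AMD1 probe set, with a mean of 257, gave log2 fold changes of -1.87 in MOLM-14 and -0.65 in KG-1, both called, and -0.20 in U937 and -0.21 in HL-60, not called. In MOLM-14 the brighter one gave -0.97. Of the other SAT1 probe sets, 1 with a mean of 311 gave 2.41 in MOLM-14, 0.57 in U937, 0.76 in HL-60 and 0.84 in KG-1, and 1 with a mean of 98.5 gave 2.74, 0.46, 0.70 and 0.70 in the same order, all called. A SAT1 probe set with a mean of only 8.28 was not called in any line. The second SMOX probe set, mean 8.23, gave 0.43 in MOLM-14, called, and between -0.05 and 0.14 elsewhere. The 2 probe sets of OAZ2, of nearly the same brightness, disagreed, and the second, mean 191, lay between 0.01 and 0.14 and was called in no line. The second OAZ1 probe set gave -0.17 in MOLM-14, called, and the second AZIN1 probe set lay between -0.04 and 0.05. Of the third probe sets, that of OAZ1, mean 12.3, was not called in any line, and that of AZIN1, mean 8.49, was called in MOLM-14 at 0.39. ODC1, SRM and SMS each rest on a single probe set.

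**Figure D3:**
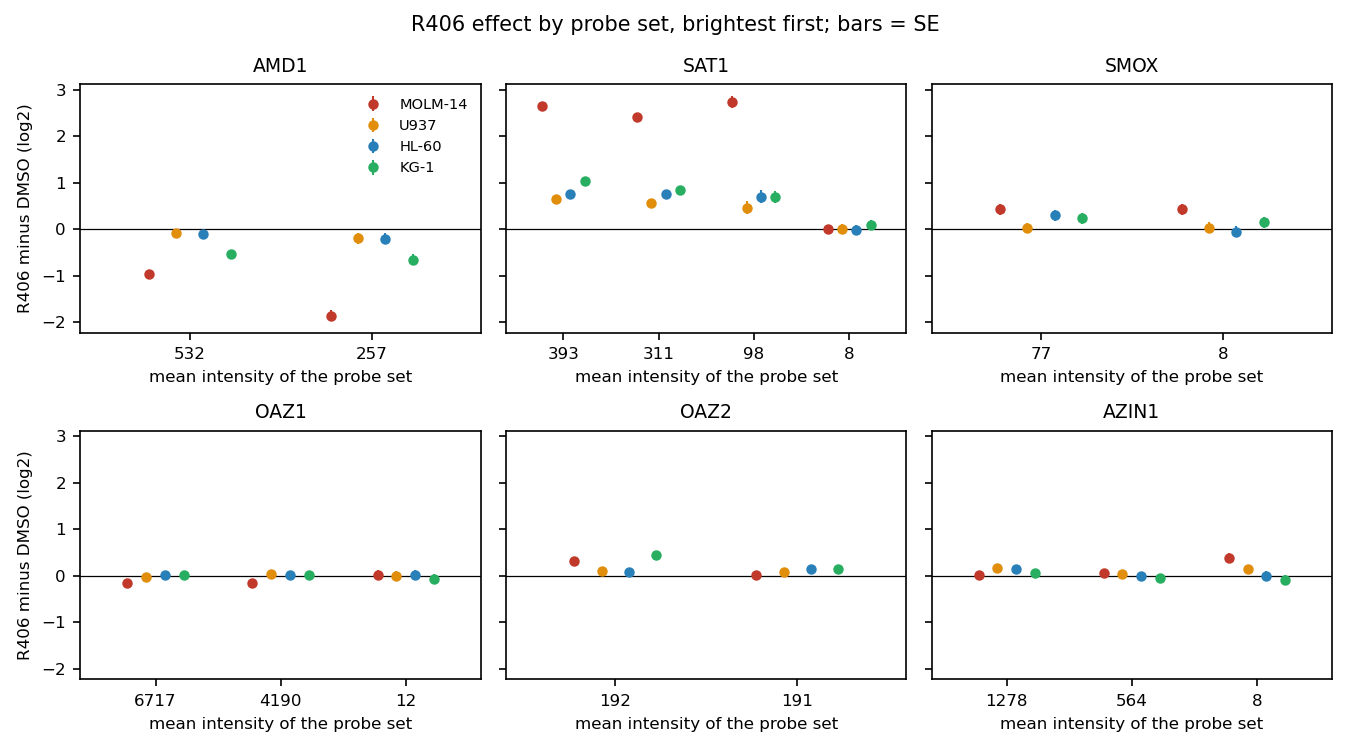
Log2 fold change of R406 over DMSO for every single-symbol probe set of AMD1, SAT1, SMOX, OAZ1, OAZ2 and AZIN1 in each line, brightest probe set first, with bars of 1 standard error. In MOLM-14 the 3 brighter SAT1 probe sets lie between 2.41 and 2.74, whereas the OAZ2 probe sets lie at 0.31 and 0.01.

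Genes that feed the pathway, use its products, or oxidise, regulate or carry polyamines were counted in 4 lists. Of 11 genes of arginine and ornithine supply, 7 were lower in MOLM-14, 3 in U937, 4 in HL-60 and 5 in KG-1, and 1 was higher, in KG-1. The share of all genes called lower was 25.0% in MOLM-14, 5.43% in U937, 7.97% in HL-60 and 20.9% in KG-1. The list's median log2 fold change was -0.98 in MOLM-14, -0.057 in U937, -0.16 in HL-60 and -0.11 in KG-1, beside all-gene medians of 0.068 in MOLM-14, 0.0027 in U937, -0.0029 in HL-60 and 0.020 in KG-1. SLC7A1, the arginine transporter, measured 89.8, 109.6 and 116 with R406 in MOLM-14, against 1255, 1296 and 1269 with DMSO, a log2 fold change of -3.60 ± 0.078 (adjusted p = 1.68e-19). It was -1.31 ± 0.078 (adjusted p = 5.11e-12) in KG-1. OAT, which interconverts ornithine and glutamate semialdehyde, was -2.61 ± 0.079 (adjusted p = 1.6e-17) in MOLM-14. ALDH18A1, which makes that semialdehyde from glutamate, was -2.22 ± 0.091 (adjusted p = 2.32e-15) in MOLM-14 and -1.21 ± 0.091 (adjusted p = 1.93e-10) in KG-1. SLC25A15, the mitochondrial ornithine carrier, was lower in all 4 lines, from -1.40 in KG-1 to -0.38 in U937.

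Of 12 genes of the methionine cycle and of methionine salvage, 10 were measured and MRI1 and IL4I1 were not analysed here. Their counts were 2 higher and 7 lower in MOLM-14, 2 lower in U937, 1 higher and 3 lower in HL-60, and 1 higher and 7 lower in KG-1. In the same lines 31.1%, 6.12%, 7.19% and 23.6% of all genes were higher, and 25.0%, 5.43%, 7.97% and 20.9% lower. Their median log2 fold changes were -0.29 in MOLM-14, -0.11 in U937, -0.12 in HL-60 and -0.46 in KG-1. MAT2A, which makes S-adenosylmethionine, was -1.81 ± 0.078 (adjusted p = 5.06e-15) in MOLM-14 and -0.57 ± 0.078 (adjusted p = 1.7e-06) in KG-1. ENOPH1, an enzyme of methionine salvage, was lower in all 4 lines, from -1.17 in MOLM-14 to -0.20 in HL-60. AHCY, which clears S-adenosylhomocysteine, was -1.32 ± 0.10 (adjusted p = 2.99e-10) in KG-1. GOT1, an aspartate aminotransferase, was -1.03 ± 0.099 (adjusted p = 5.36e-09) in MOLM-14 and 0.45 ± 0.099 (adjusted p = 0.00293) in HL-60, so its direction differed.

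Spermidine is also the donor for hypusine, the modified residue of the translation factor EIF5A. Of the 4 genes of that list, 2 were lower in MOLM-14, U937 and KG-1 and 1 in HL-60, where 1 was higher. Among all genes 25.0% were lower in MOLM-14, 5.43% in U937, 7.97% in HL-60 and 20.9% in KG-1, and 56.2% were called either way in MOLM-14. The list's medians were -0.75 in MOLM-14, -0.24 in U937, 0.0042 in HL-60 and -0.56 in KG-1. EIF5A was -1.80 ± 0.079 (adjusted p = 6.83e-15) in MOLM-14, -0.31 ± 0.079 (adjusted p = 0.00809) in HL-60 and -1.71 ± 0.079 (adjusted p = 7.89e-14) in KG-1. DOHH, the hydroxylase of the last step, was -1.21 ± 0.12 (adjusted p = 1.24e-08) in MOLM-14 and -1.07 ± 0.12 (adjusted p = 1.51e-07) in KG-1. In U937 DOHH was also called lower, at 38.4, 42.3 and 46.3 with R406 and 63.4, 57.8 and 62.2 with DMSO. EIF5A was not called there. DHPS, the synthase of the step before, passed the test in U937 alone, at -0.26 ± 0.081 (adjusted p = 0.0399). EIF5A2 was the gene higher in HL-60, at 0.43 ± 0.13 (adjusted p = 0.029). Its arrays there read 14.3 to 16.6 with R406 and 10.3 to 12.2 with DMSO, dimmer than the array medians of 19.1 to 21.4. Of 15 genes of other oxidation, antizymes and transport, 10 entered the analysis and the rest were not used here. They gave 1 higher and 3 lower in MOLM-14, 1 lower in U937 and 4 lower in KG-1, with medians between -0.11 in MOLM-14 and -0.024 in U937. Of all genes 56.2% were called in MOLM-14, 11.5% in U937, 15.2% in HL-60 and 44.5% in KG-1, so the shares called either way in this list were no higher than the background. Lower calls alone covered 25.0% of all genes in MOLM-14, 5.43% in U937 and 20.9% in KG-1, each below the share in this list. In HL-60 they covered 7.97% of all genes, above the share in the list. In HL-60 the limma test called 0 of the 10, and 0 had an unadjusted p under 0.05. SLC3A2, the heavy chain of amino acid exchangers, was -1.31 ± 0.075 (adjusted p = 7.72e-13) in MOLM-14 and -0.64 ± 0.075 (adjusted p = 5.87e-06) in U937. ATP13A3, a P5B-type transport ATPase linked to polyamine uptake, was -0.49 ± 0.11 (adjusted p = 0.000351) in MOLM-14 and -0.53 ± 0.11 (adjusted p = 0.00024) in KG-1.

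**Figure D4:**
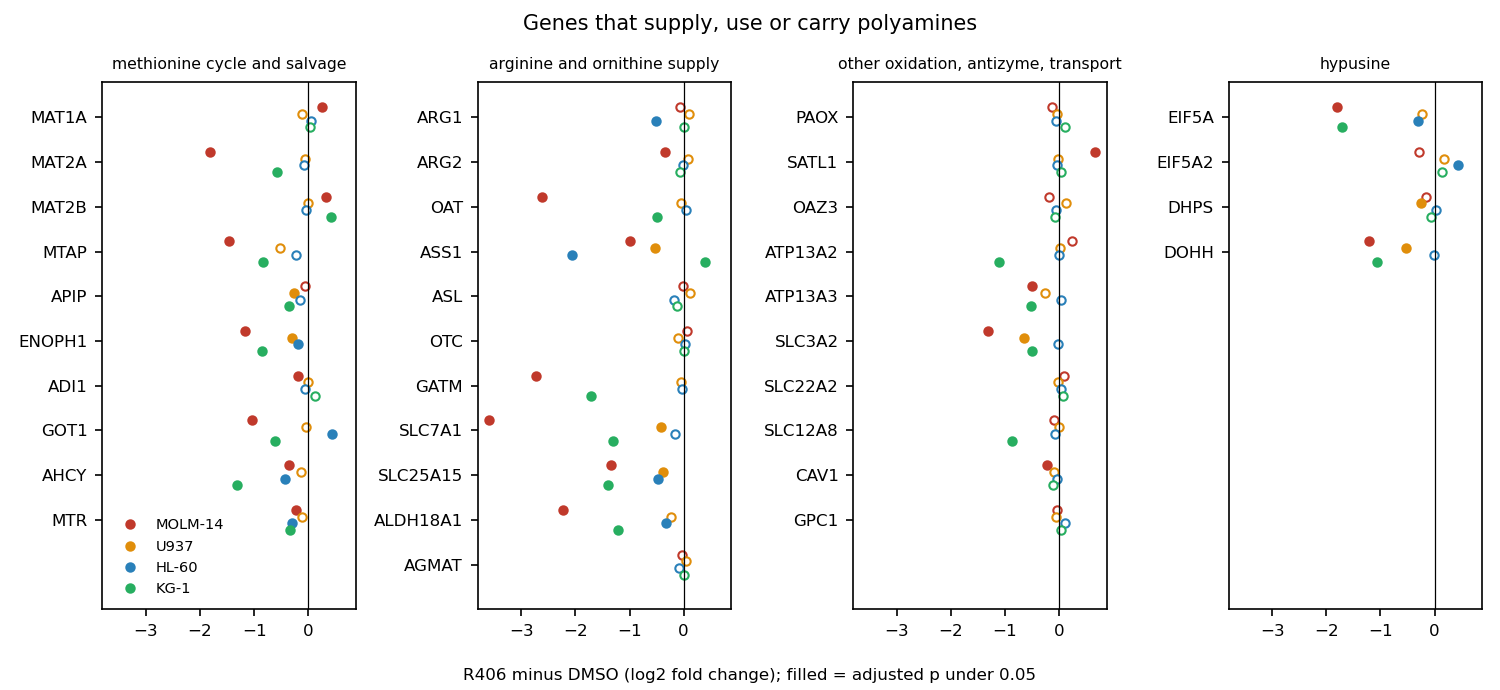
Log2 fold change of R406 over DMSO in each line for the measured genes of the 4 neighbouring lists, with filled points for adjusted p under 0.05. SLC7A1 reaches -3.60 and OAT -2.61 in MOLM-14, and GOT1 lies on opposite sides of 0 in MOLM-14 and HL-60.

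MYC, the transcription factor named above, was lower with R406 in all 4 lines, at -3.38 ± 0.091 (adjusted p = 3.12e-18) in MOLM-14, -2.11 ± 0.091 (adjusted p = 3.23e-14) in KG-1, -0.80 ± 0.091 (adjusted p = 4.56e-06) in U937 and -0.62 ± 0.091 (adjusted p = 4e-05) in HL-60. Its partner MAX was called in KG-1 alone, higher at 0.41 ± 0.075 (adjusted p = 9.49e-05). NQO1, a reductase known to bind ornithine decarboxylase protein and to protect it from degradation, moved in opposite directions. It was lower in MOLM-14 at -1.13 ± 0.094 (adjusted p = 4.51e-10) and in KG-1 at -0.44 ± 0.094 (adjusted p = 0.00044), and higher in U937 at 0.83 ± 0.094 (adjusted p = 4.38e-06) and in HL-60 at 0.51 ± 0.094 (adjusted p = 0.000483).

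The genes most like ODC1 were sought by the Euclidean distance between the 8 group means of log2 values, each centred on the gene's own mean. The nearest 5 were NDC1 at 0.43, DNAAF5 at 0.45, GART at 0.57, POLR2D at 0.58 and GOSR2 at 0.58, where the median gene lay at 2.35. Their log2 fold changes lay between -1.91 and -1.39 in MOLM-14 and between -1.53 and -1.08 in KG-1. They lay between -0.59 and -0.078 in U937 and between -0.48 and -0.19 in HL-60. The nearest to SAT1 were PINK1 at 0.92, NAGK at 1.13, PTPN22 at 1.31, IFFO1 at 1.31 and DHRS1 at 1.34, with the median gene at 2.71. In MOLM-14 their log2 fold changes lay between 1.13 and 2.03, below that of SAT1. They lay between 0.017 and 0.87 in U937, 0.091 and 0.64 in HL-60, and 0.37 and 0.90 in KG-1. The neighbours of both genes were picked on these same group means, so their likeness follows from the choice.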

How the data were processed

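RNA from 24 samples, 3 in each of 8 groups of cell line and treatment, was extracted with Qiagen RNeasy columns, labelled with biotin and hybridised to Affymetrix high-throughput arrays, per the labels. The authors deposited probe set intensity values made with RMA, per the submitters' processing notes, with no version given in the sources used here. RMA usually corrects background, brings the arrays to the same quantiles and summarises the probes of a set. The values are on a linear scale, so log2(intensity + 1) was computed. Of 22277 probe sets, 62 were controls, 568 carried several symbols and 1923 carried none in the annotation, and leaving these out kept 19724 for 12165 genes, of which 12153 names matched a RefSeq gene ID. The brightest probe set stood for a gene. No dim gene was left out, and detection calls were not used here.

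A model with 8 group means (limma 3.58.1 under R 4.3.3) was used (16 residual and 5.46 prior degrees of freedom). P-values were Benjamini-Hochberg adjusted over all genes, with a threshold of 0.05. The members, the 4 neighbouring lists, the marker lists and the alternatives were chosen with earlier results of these data known. MOLM-14 was compared with the other lines because of its wide response in those results. Genes of each list named are up to 4 with the smallest p in the mean effect or in the difference between lines, with MYC, MAX and NQO1 as single regulators. Pairs of lines were added after results were seen. On simulated data for each line (12165 genes), the share of planted changes that the model called was 25.8% to 42.9% at 1.25-fold, 77.5% to 92.5% at 1.5-fold, and at 2-fold between 96.2% and 100%. Far fewer genes were changed there than were called in any line, so these shares need not hold for the arrays. Precision is limited by having 3 arrays a group. Same-numbered R406 and DMSO arrays correlated between -0.085 and 0.069 in their deviations from group means, so the numbers were not treated as pairs. No batch is named in the labels. Alternatives were repeated quantile normalization, median centring, omission of the dimmest 33.3% of genes, other probe set rules, pseudocounts of 16 and 0, each line alone, a replicate block and leaving out each array.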

Additional observations from a re-analysis of the deposited data

Results flagged for a closer look

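The R406 effect of 24 of the 28 named genes differed between the 4 lines by the moderated F test, where 54.9% of all genes did. The genes of the neighbouring lists among them were named for a small p in the mean effect or in this same test, so their share is a description only. The range of the 4 log2 effects is given for each. Among the polyamine genes, it was 2.47 for SRM (adjusted p = 4.11e-16), 2.01 for SAT1 (adjusted p = 1.73e-14) and 1.20 for ODC1 (adjusted p = 4.74e-09). It was 0.89 for AMD1 (adjusted p = 3.68e-08), 0.64 for SMS (adjusted p = 0.000341) and 0.36 for OAZ2 (adjusted p = 0.0427), and the OAZ2 call is the least stable of these.

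In arginine and ornithine supply, the range was 3.44 for SLC7A1 (adjusted p = 9.16e-16), 2.65 for OAT (adjusted p = 2.16e-14), 2.00 for ALDH18A1 (adjusted p = 2.08e-11) and 1.03 for SLC25A15 (adjusted p = 1.2e-09). In the methionine cycle and salvage, it was 1.75 for MAT2A (adjusted p = 1.19e-11), 1.48 for GOT1 (adjusted p = 3.36e-08), 1.18 for AHCY (adjusted p = 1.27e-06) and 0.97 for ENOPH1 (adjusted p = 5.37e-09). In transport and related functions, it was 1.29 for SLC3A2 (adjusted p = 8.53e-09), 0.87 for SLC12A8 (adjusted p = 1.12e-05), 0.71 for SATL1 (adjusted p = 3.64e-05) and 0.56 for ATP13A3 (adjusted p = 0.00871). In the hypusine list, it was 1.57 for EIF5A (adjusted p = 7.03e-12), 1.20 for DOHH (adjusted p = 9.35e-06) and 0.73 for EIF5A2 (adjusted p = 0.0158). Among the regulators, it was 2.76 for MYC (adjusted p = 1.28e-13), 1.96 for NQO1 (adjusted p = 7.06e-11) and 0.57 for MAX (adjusted p = 0.000508). NQO1 was called in all 4 lines, lower in MOLM-14 and KG-1 and higher in U937 and HL-60. SLC12A8 and EIF5A2 are dim. SLC12A8 read 6.42 to 7.97 with R406 and 11.9 to 16.6 with DMSO in KG-1, below the array medians of 19.1 to 21.4.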

How the results depend on the processing

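ODC1, SRM and AMD1 kept their calls and directions in each R406 comparison under all alternatives run. SAT1 did so except where probe sets whose names end in _s_at or _x_at, which can bind related transcripts, were left out. It then rests on a probe set of mean intensity 8.28, with log2 values of 0.0026 in MOLM-14, 0.012 in U937, -0.012 in HL-60, 0.095 in KG-1 and -0.029 for MOLM-14 minus the other lines, and SMOX was -0.052 in HL-60 and 0.14 for the mean, not called. With that choice 8507 genes and 7 members were tested. The counts of genes called higher and lower, with the main counts in brackets, were 2419 and 1843 in MOLM-14 (3787 and 3045), 399 and 331 in U937 (744 and 660), 537 and 554 in HL-60 (875 and 969) and 1782 and 1459 in KG-1 (2870 and 2540). They were 2245 and 1774 for the mean effect (3538 and 2920) and 1826 and 1632 for MOLM-14 minus the other lines (2875 and 2713). The difference between lines called 4076 genes (6681) and the DMSO groups 5188 (8285). Members called were 5 for the mean effect and 3 for the difference between lines. Leaving out 1 array gave 431 to 791 genes lower in U937, of which 436 without U937 R406 replicate 1 and 431 without replicate 3.

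Small values turned sign without being called. Quantile normalization gave 0.016 for SMS in MOLM-14, -0.0035 for OAZ1 in HL-60 and -0.0020 for OAZ1 in KG-1. Median centring gave -0.0100 for SMOX in U937, -0.050 for OAZ1 in KG-1 and -0.010 for AZIN1 in KG-1. The mean of a gene's probe sets gave 0.0023 for OAZ1 in U937, -0.014 for OAZ1 and -0.023 for AZIN1 in KG-1, and -3.57e-05 for OAZ2 and 0.10 for AZIN1 in MOLM-14 minus the other lines. With 1 array left out, AZIN1 in MOLM-14 ran from -0.020 to 0.050, SMOX in U937 from -0.063 to 0.097 and OAZ1 in KG-1 from -0.0059 to 0.045. AZIN1 in MOLM-14 was called with quantile normalization (0.15, adjusted p = 0.0463) and with the mean of its probe sets (0.15, adjusted p = 0.0138). The cause was not tested.

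With replicate number as a block, 3 member calls were lost: OAZ1 in MOLM-14 minus the other lines (-0.16, adjusted p = 0.0828), the OAZ2 difference between lines (0.36, adjusted p = 0.126) and OAZ1 between DMSO groups (0.18, adjusted p = 0.266). With the block, the DMSO comparison uses fitted levels at replicate 1 rather than group means, so its last value is not the same quantity as before. The block left 3707 genes higher and 3022 lower in MOLM-14. Over all members and settings, 1631 values kept direction and call, 39 lost a call, 14 gained one and 19 turned sign. The sign turns include SAT1 in HL-60 and in MOLM-14 minus the other lines, whose lost calls are not among the 39. The second SMOX and the fourth SAT1 probe sets, at means of 8.23 and 8.28, lie near the low end of the intensities.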
